A study of Mus musculus with 11 samples.

Results

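Fibroblasts carry genes of a small proteolytic system that sits at the cell surface, and 9 of its genes were followed in sorted fibroblasts of mouse back skin. They are the plasminogen activators Plau and Plat, the receptor Plaur, the serpins Serpine2, Serpinf1, Serpina3b and Serpina3n, the coagulation starter F3 and its inhibitor Tfpi. They were chosen by symbol from a table of 47643 symbols, each matched 1 row, and all 9 passed the filter on low values (at least 1 RPKM in at least 2 libraries) that left 11979 genes to test. RPKM is a read density, scaled to the length of the transcript and to the number of mapped reads in the library. Serpina3b passed this filter through the libraries of unwounded skin alone, so it could only be found lower in wounds.

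Plau encodes urokinase and Plat tissue plasminogen activator, secreted serine proteases that cut the zymogen plasminogen into plasmin, which dissolves fibrin and trims other matrix proteins. Urokinase acts on the cell surface when held by its receptor Plaur, and serpins trap such proteases by a suicide mechanism in which the cleaved inhibitor stays bound to the enzyme. Tissue factor (F3) starts the coagulation cascade that lays down fibrin, Tfpi restrains it, and after injury the provisional fibrin clot is laid down and then removed while fibroblasts move in.

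The mice were F1 offspring of CD-1 and C57BL/6 (50% of each) at 9 to 12 weeks of age. Act mice expressed activin A (INHBA) in keratinocytes under the keratin 14 promoter, so the fibroblasts themselves were not the cells that the promoter targets, and wild-type (WT) littermates were the controls. Live cells that carried CD140a and lacked CD45, CD11b and the macrophage antigen encoded by Adgre1 were sorted from non-wounded back skin (NS) or from excisional wounds 5 days after injury (5dw), giving 3 libraries each for WT NS, Act NS and WT 5dw, and 2 for Act 5dw (replicates 1 and 3), each holding pooled RNA of 3 animals. RNA input was 100 ng for NS and 200 ng for 5dw, so input and tissue cannot be told apart. No library came from a single animal, and p-values measure the spread between pools.

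Mapped reads recovered from the RPKM steps ranged from 18649321 to 39702138 a library. Inhba, the mouse gene of the activin subunit, was at 3.40 to 6.93 RPKM in WT NS and 36.3 to 91.2 RPKM in Act NS, and at 15.8 to 24.0 RPKM in WT 5dw and 26.2 to 50.2 RPKM in Act 5dw, so the groups did not overlap within a tissue. Pdgfra, the gene of the sorting antigen CD140a, was present in all libraries (29.6 to 65.3 RPKM), and all 10 immune markers, Ptprc (CD45) among them, stayed under 1 RPKM. The 8 T cell markers summed to 4.16 to 35.7 RPKM in NS and 59.1 to 107 RPKM in 5dw, nearly all of it Cd3e (2.94 to 33.9 RPKM in NS, 55.5 to 105 RPKM in 5dw), whereas its partners Cd3d and Cd3g stayed under 1 RPKM in every library. The sample descriptions name CD3 among the antigens selected against and the study's methods do not, so whether T cells were gated out on CD3 is not settled here. The part of this signal in the wound results was not tested. The 14 keratinocyte markers summed to 1277 to 4771 RPKM in NS and 126 to 1062 RPKM in 5dw. On the second principal component (7.06% of variance) the WT NS and Act NS libraries numbered 1 lay at 22.4 and 35.8, whereas the other 4 NS libraries lay between -18.1 and -7.42. In bulk RNA of a sorted pool, fewer cells of a type and less RNA per cell cannot be told apart.

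**Figure D1:**
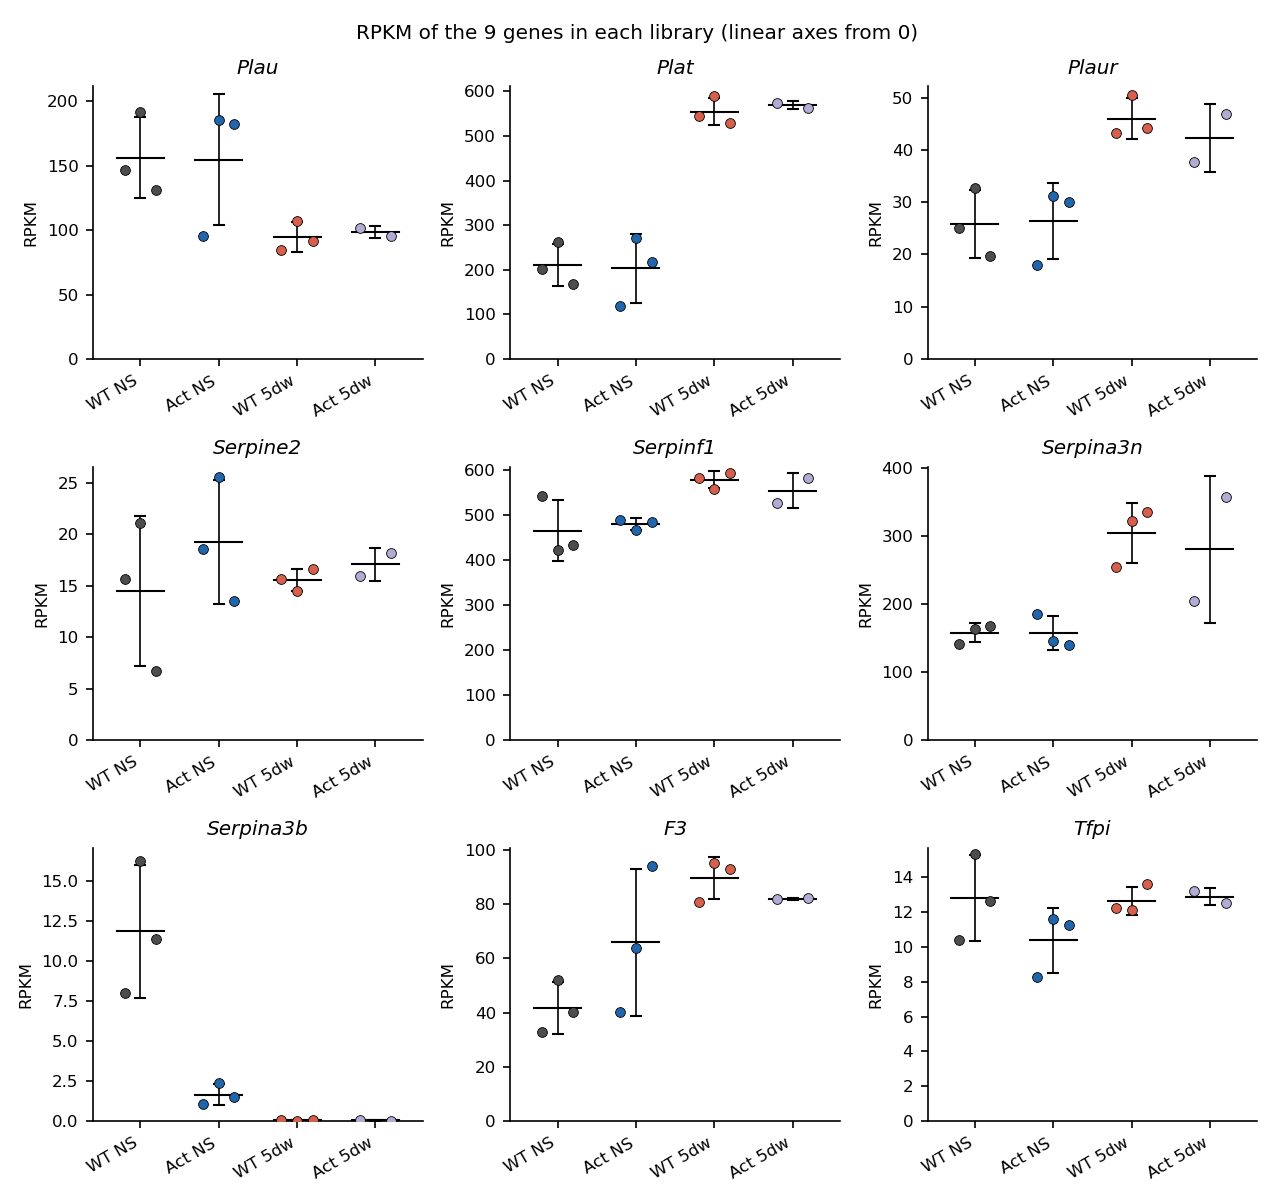
RPKM (y axis, linear from 0) of the 9 genes in every library, 1 panel a gene, with the 4 groups on the x axis; points are libraries, the long bar is the mean and the error bar the SD. Plat, Plaur and Serpina3n lie higher in all 5 wound libraries than in all 6 skin libraries, and Serpina3b lies lower.

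The wound fibroblasts had more mRNA of tissue plasminogen activator, of the urokinase receptor, of Serpina3n and, in WT, of tissue factor, and almost none of Serpina3b. In Act the call of the receptor held in 11 of 22 alternative analyses. The genotypes were not shown to differ in the wound effect on tissue factor. In WT 5dw compared with WT NS, 4 of the 9 genes were higher and 2 were lower at an adjusted p under 0.05 (limma on log2(RPKM + 0.5), Benjamini-Hochberg over all 11979 genes). Among all genes tested, 9.45% were called higher and 48.8% lower in that comparison. In Act 5dw compared with Act NS, 3 of the 9 were higher and 1 was lower, beside 9.04% higher and 36.5% lower among all genes. The lower gene in Act, and 1 of the 2 in WT, was Serpina3b, which by the filter could only be found lower. The median of all genes moved by -0.40 in WT and by -0.31 in Act on the log2 scale. A median-ratio scaling of the libraries, which brings these medians to 0.014 and 0.013, is therefore given for each of the 9 genes wherever it changes a call or a direction of the wound comparisons. With it, 6 of the 9 genes were higher and 1 was lower in either genotype, while all genes gave 2803 higher and 2543 lower in WT and 2430 and 2447 in Act.

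Levels per length placed Serpinf1 at the top and Serpina3b at the bottom of the 9 genes in WT NS, Act NS and WT 5dw. In WT NS the mean RPKM fell in the order Serpinf1 (465), Plat (211), Serpina3n (158), Plau (156), F3 (41.7), Plaur (25.8), Serpine2 (14.5), Tfpi (12.8) and Serpina3b (11.8). The libraries of Serpina3n and Plau overlapped in that order, as did those of the last 4 genes, each with the next. In WT 5dw the order was Serpinf1 (578), Plat (555), Serpina3n (304), Plau (94.7), F3 (89.7), Plaur (46.0), Serpine2 (15.6), Tfpi (12.6) and Serpina3b (0.0371), and Serpinf1 overlapped Plat and Plau overlapped F3. Plat was therefore apart from Serpinf1 in WT skin and overlapped it in WT wounds.

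**Figure D2:**
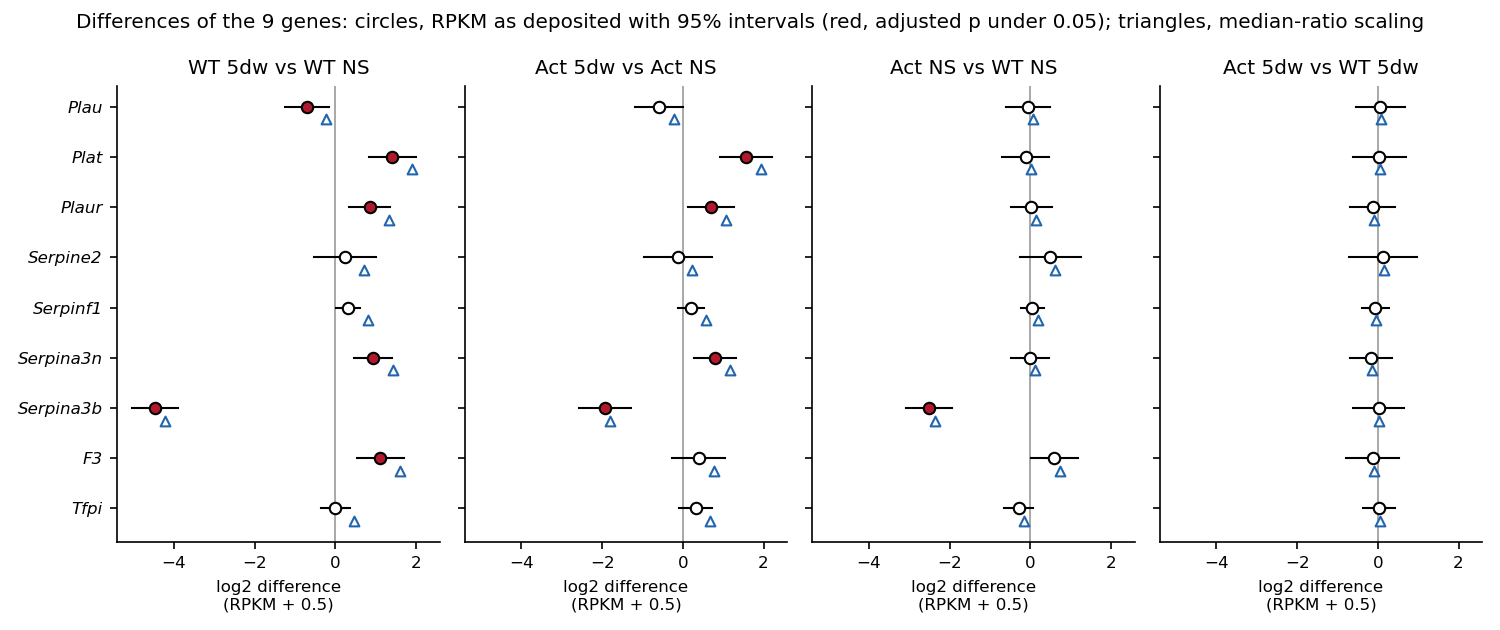
Difference between groups for each gene on the log2(RPKM + 0.5) scale (x axis) in 4 comparisons; circles are estimates with 95% intervals, red when the adjusted p is under 0.05, and triangles are estimates after median-ratio scaling. The wound comparisons of both genotypes carry the calls, and the genotype comparisons carry 1, Serpina3b in skin.

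Plat, the gene of tissue plasminogen activator (chromosome 8, GRCm38 chr8:22757727-22782844, + strand), was at 202, 262 and 169 RPKM in WT NS and at 119, 272 and 218 RPKM in Act NS. It was at 546, 589 and 530 RPKM in WT 5dw and at 575 and 563 RPKM in Act 5dw. Every wound library lay above every skin library. The mean rose from 211 ± 47.0 (SD, n = 3) to 555 ± 30.3 RPKM (n = 3) in WT and from 203 ± 77.4 (n = 3) to 569 ± 8.58 RPKM (n = 2) in Act. The difference was 1.42 on the log2 scale in WT (SE 0.27, limma adjusted p = 0.00118) and 1.57 in Act (SE 0.30, adjusted p = 0.00183). It was called in each of 22 alternative analyses in either genotype. The 10 endothelial markers, genes of another cell type that makes tissue plasminogen activator, summed to 29.96 to 47.6 RPKM in NS and 23.3 to 30.6 RPKM in 5dw, with 5 or 6 of the 10 under 1 RPKM in every library of a group. Of the 5 tested, Tek and Plvap were lower in wounds of both genotypes, Pecam1 was higher in both (1.40 in WT, limma adjusted p = 0.00011, and 1.45 in Act, 0.000275), and Cdh5 was higher in Act (0.79, adjusted p = 0.0414). After median-ratio scaling the calls of Tek (-0.98, adjusted p = 0.0587) and Plvap (-1.12, 0.0706) ended in Act, and Cdh5 was called in WT too (0.85, 0.0215). Their part in the result was not tested.

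Plau, the gene of urokinase (chr14:20836660-20843385, + strand), was lower in wounds of WT. It was at 146, 191 and 131 RPKM in WT NS, at 95.7, 185 and 183 RPKM in Act NS, at 84.9, 107 and 91.8 RPKM in WT 5dw and at 102 and 95.2 RPKM in Act 5dw. The WT groups did not overlap, whereas Act NS replicate 1 lay within the range of the wound libraries. In WT the mean fell from 156 ± 31.4 to 94.7 ± 11.5 RPKM, a log2 difference of -0.71 (SE 0.24, limma adjusted p = 0.0284). In Act the difference was -0.59 (SE 0.27, adjusted p = 0.102). The WT call was made in 17 of 22 alternatives, with adjusted p from 0.00297 to 0.415, and ended under median-ratio scaling (-0.23). It also ended without WT NS replicate 2 (-0.55, adjusted p = 0.0998), without WT 5dw replicate 1 (-0.63, 0.0875) and without WT 5dw replicate 3 (-0.69, 0.0707). In Act it was called without Act NS replicate 1 (-0.90, adjusted p = 0.00342).

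Plaur encodes the urokinase receptor, a lipid-anchored surface protein (chr7:24462484-24475968, + strand). It was at 25.1, 32.7 and 19.6 RPKM in WT NS and 18.0, 31.1 and 30.02 RPKM in Act NS, against 43.3, 50.6 and 44.2 RPKM in WT 5dw and 37.6 and 46.8 RPKM in Act 5dw. All 5 wound libraries were above all 6 skin libraries. The log2 difference was 0.85 in WT (SE 0.23, limma adjusted p = 0.00893), called in 22 of 22 alternatives, and 0.70 in Act (SE 0.26, adjusted p = 0.0448), called in 11 of 22 with adjusted p from 0.00567 to 0.243. In Act the value was 0.45 without Act NS replicate 1 (adjusted p = 0.106). Leaving out Act 5dw replicate 1 gave 0.86 (adjusted p = 0.0735), and leaving out replicate 3 gave 0.54 (0.243). Its call also ended, at 0.70, when any of WT NS replicate 1 and the 3 WT 5dw replicates was left out, with adjusted p between 0.0545 and 0.0597. Macrophages and neutrophils also carry this receptor, and the sort selected against them with CD45, CD11b and the Adgre1 antigen. The macrophage markers (9 of 10 in the table) summed to 9.85 to 16.9 RPKM in NS and 11.01 to 15.5 RPKM in 5dw, and the 10 neutrophil markers to 0.510 to 1.43 RPKM in NS and 3.17 to 21.97 RPKM in 5dw, with 8 of the 10 under 1 RPKM in every library of a wound group. Their part in the result was not tested.

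Counting all genes, 8.45% had every wound library above every skin library and 38.9% had every wound library below. Of the 9 genes, Plat, Plaur and Serpina3n were in the first class and Serpina3b was in the second.

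Ratios taken within a library do not depend on the scaling between libraries, and they set Plat against Plau. Plat over Plau was 1.38, 1.37 and 1.29 in WT NS and 1.25, 1.47 and 1.19 in Act NS. Among wounds it was 6.42, 5.49 and 5.77 for WT 5dw and 5.66 and 5.91 for Act 5dw. The skin fibroblasts thus had nearly as much urokinase as tissue plasminogen activator mRNA per length, and the wound fibroblasts did not, in any library. Plau over Plaur ranged from 5.32 to 6.66 in NS and from 1.96 to 2.70 in 5dw. A ratio shows unequal change and not which gene moved.

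**Figure D3:**
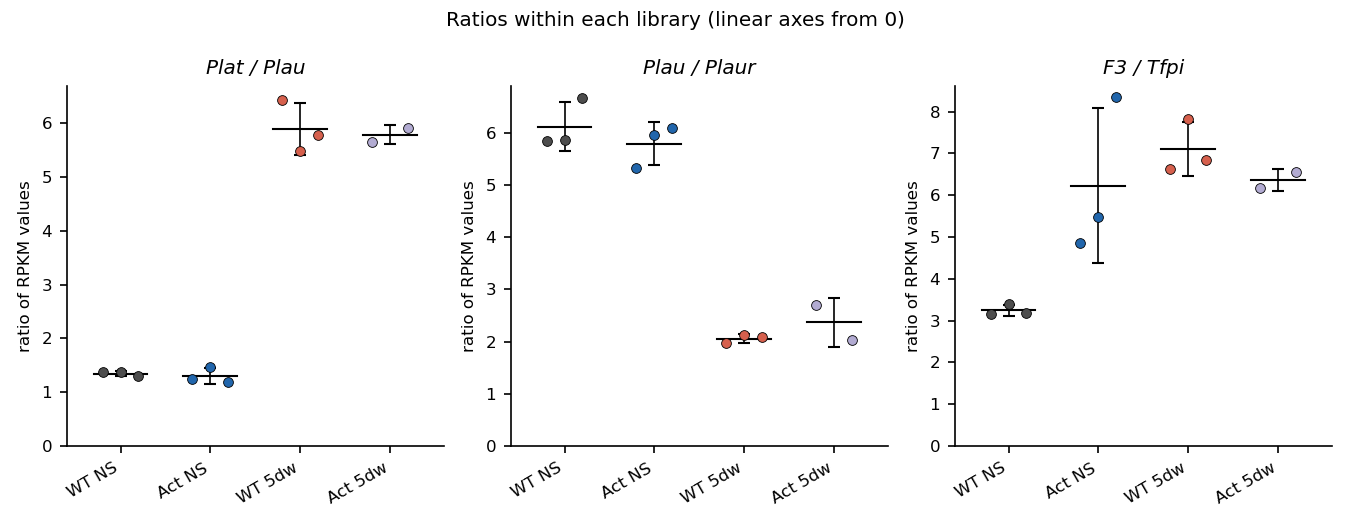
Ratios of RPKM values within each library (y axes, linear from 0) for Plat over Plau, Plau over Plaur and F3 over Tfpi in the 4 groups; points are libraries, the long bar is the mean and the error bar the SD. The first ratio is at most 1.47 in skin and at least 5.49 in wounds, the second at least 5.32 in skin and at most 2.70 in wounds, and the third is lowest in WT NS.

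Serpine2 (protease nexin-1, an inhibitor of thrombin, urokinase and tissue plasminogen activator, chr1:79794197-79861180, - strand) showed no called difference. Its values were 15.7, 21.1 and 6.67 RPKM in WT NS, 18.5, 25.6 and 13.6 RPKM in Act NS, 15.6, 14.4 and 16.6 RPKM in WT 5dw and 16.0 and 18.2 RPKM in Act 5dw. The wound values lay inside the spread of the skin values. The log2 difference was 0.24 in WT (95% interval -0.52 to 1.00, limma adjusted p = 0.563) and -0.12 in Act (-0.97 to 0.73, adjusted p = 0.819). WT NS replicate 3 set the sign in WT, where the value was -0.22 without it, and in Act median-ratio scaling gave 0.24. Plat over Serpine2 was 6.44 to 25.4 in NS and 30.9 to 40.8 in 5dw without overlap, whereas Plau over Serpine2 was 5.17 to 19.6 in NS and 5.23 to 7.43 in 5dw.

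Serpinf1 encodes pigment epithelium-derived factor, a secreted serpin that inhibits no protease and is known as an anti-angiogenic factor (chr11:75409769-75422701, - strand). It was at 543, 421 and 432 RPKM in WT NS, 490, 466 and 485 RPKM in Act NS, 582, 557 and 594 RPKM in WT 5dw and 527 and 581 RPKM in Act 5dw. The WT wound libraries were above the WT skin libraries, and WT NS replicate 1 was above Act 5dw replicate 1. The log2 difference was 0.32 in WT (SE 0.13, limma adjusted p = 0.0589) and 0.20 in Act (SE 0.15, adjusted p = 0.284). Both were called after median-ratio scaling, at 0.80 (adjusted p = 0.00144, within a range of 0.00144 to 0.169 over the alternatives) and 0.57 (0.0171, within 0.0171 to 0.633). The WT value was 0.44 without WT NS replicate 1 (adjusted p = 0.0175), and the Act value was 0.13 without Act 5dw replicate 3.

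Serpina3n, an acute-phase serpin that inhibits neutrophil elastase, cathepsin G and granzyme B, was the third most abundant of the 9 genes in wounds (chr12:104406729-104414329, + strand). It was at 142, 163 and 168 RPKM in WT NS and at 186, 146 and 140 RPKM in Act NS. It was at 254, 322 and 336 RPKM in WT 5dw and at 204 and 357 RPKM in Act 5dw. All wound libraries were above all skin libraries, the Act 5dw pair being the widest apart. The log2 difference was 0.94 in WT (SE 0.21, limma adjusted p = 0.0033, called in 22 of 22 alternatives) and 0.79 in Act (SE 0.24, adjusted p = 0.0186, called in 18 of 22, range 0.00514 to 0.234). Leaving out Act 5dw replicate 1 gave 1.19 in Act, and leaving out replicate 3 gave 0.39 (adjusted p = 0.234), with the call ended, as it also did without Act NS replicate 2 (0.74, 0.0508) or replicate 3 (0.71, 0.0558).

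Serpina3b changed most of the 9 genes (chr12:104127996-104139545, + strand). This serpin of the same cluster has no function that is as well described as those of the other members. It was at 7.97, 16.2 and 11.4 RPKM in WT NS (416, 626 and 698 reads) and at 1.05, 2.37 and 1.51 RPKM in Act NS (52, 118 and 72 reads). In WT 5dw it was at 0.0365, 0 and 0.0747 RPKM (3, 0 and 6 reads) and in Act 5dw at 0.0706 and 0.0189 RPKM (3 and 1 reads). The 3 groups WT NS, Act NS and wounds therefore formed 3 levels that did not overlap. In WT the log2 difference between wound and skin was -4.47 (SE 0.26, limma adjusted p = 9.47e-07) and in Act -1.93 (SE 0.29, adjusted p = 0.000474), both called in 22 of 22 alternatives.

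The pseudocount shrinks those differences. Summed over libraries, its share of mapped reads was 308-fold higher in WT NS (1740 reads) than in WT 5dw (9 reads), with an exact 95% interval of 162 to 675 that covers counting error only. In Act the ratio was 39.3, with an interval of 15.2 to 145 (242 against 4 reads). Wound levels were at or near the value that 3 reads give in these libraries (0.0365 to 0.0706 RPKM), so no fold of reads is given between the genotypes in wounds. On the log2 scale that difference depends on the method, from -0.047 to 0.75 over the alternatives, the last with limma-voom (SE 1.73).

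Between the genotypes in unwounded skin, Serpina3b was lower in Act NS than in WT NS by a log2 difference of -2.52 (SE 0.26, limma adjusted p = 0.0123), in 3 of 3 libraries below the lowest WT library. It was the only one of the 9 genes called there, and 0.0167% of all genes were called, 2 of 11979, the other being Inhba. The call was made in 17 of 22 alternatives with adjusted p from 0.00362 to 0.148. It ended with a filter of 5 RPKM (-2.52, adjusted p = 0.148), with a fit of the NS groups alone (-2.52, 0.0907), with limma-voom on recovered reads (-2.84, 0.0639), without WT NS replicate 2 (-2.27, 0.0632) and without WT NS replicate 3 (-2.52, 0.0805). Of all genes, 8.97% had no overlap between Act NS and WT NS, and of the 9 genes Serpina3b alone did. The difference between the wound effects of the genotypes was 2.54 (SE 0.39, adjusted p = 0.171, range over alternatives 0.0624 to 1.00), where the near-0 wound level bounds both effects.

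The keratinocyte markers summed to 1277, 2167 and 2344 RPKM in WT NS and to 1291, 3074 and 4771 RPKM in Act NS, and these ranges overlapped. The sum was 126, 243 and 1062 RPKM for WT 5dw and 268 and 308 RPKM for Act 5dw, below every skin library, as Serpina3b was. The part of keratinocyte RNA in either difference was not tested. WT 5dw replicate 3 had the highest keratinocyte sum of the wounds and 6 reads of Serpina3b (0.0747 RPKM). Act 5dw replicate 1, at a sum of 268 RPKM, had nearly the same Serpina3b level (0.0706 RPKM). In skin, Act NS replicate 3 had the highest sum and 1.51 RPKM of Serpina3b, below every WT NS library.

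Serpina3b and Serpina3n belong to a cluster of Serpina3 paralogs on chromosome 12, whose other genes were named after their values were seen. Serpina3j was closest to Serpina3b. It was at 7.32, 15.5 and 10.2 RPKM in WT NS, 0.989, 2.75 and 2.73 RPKM in Act NS, 0.0701, 0.0719 and 0.167 RPKM in WT 5dw and 0.158 and 0.127 RPKM in Act 5dw. Its log2 difference was -4.20 in WT (adjusted p = 3.98e-06), -1.96 in Act (0.00128) and -2.14 between Act NS and WT NS (adjusted p = 0.0676, not called). That last value was called in 4 of 22 alternatives, with adjusted p within 0.0121 to 0.57. One was the replicate block (-2.14, adjusted p = 0.0198), a pairing taken from these values and not from the labels. The others were array weights (-1.81, 0.044), leaving out WT NS replicate 1 (-2.39, 0.0394) and leaving out both NS libraries numbered 1 (-2.01, 0.0121). Like Serpina3b, Serpina3j passed the filter through skin libraries alone. Over the 11 libraries Pearson's r of the pair was 0.994, a description over libraries that fall into tissue groups. Reads of these paralogs are uncertain to the extent that sequence is shared: 7.99% of the 31-base words of Serpina3b occurred in another gene, 3.43% in Serpina3j, and 21.6% of those of Serpina3n.

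Other genes of the cluster moved in both directions. Serpina3c fell from 24.0 ± 3.42 to 1.16 ± 0.139 RPKM in WT (-3.88, adjusted p = 4.24e-07) and from 22.7 ± 4.24 to 1.07 ± 0.416 RPKM in Act (-3.90, 1.02e-06), and unlike Serpina3b it was not called between Act NS and WT NS (-0.084, adjusted p = 0.897, and 0.046 after median-ratio scaling). Serpina3g rose from 2.59 ± 0.232 to 29.6 ± 9.04 RPKM in WT (3.23, adjusted p = 5.98e-06) and from 1.92 ± 0.565 to 19.7 ± 6.21 RPKM in Act (3.05, 2.91e-05). Serpina3f (1.86 in WT, adjusted p = 1.21e-05) and Serpina3m (1.21, 0.000526) rose too. Serpina3h and Serpina3i, with mean RPKM of 35.5 and 11.3 in WT NS, were at 49.5 and 14.1 in WT 5dw. In WT, Serpina3h was called (0.47, adjusted p = 0.0337, and in 16 of 22 alternatives). Serpina3i was not (0.33, 0.206), except after median-ratio scaling (0.79, 0.00756). Serpina3h is annotated as a transcribed pseudogene. Shared words made up 39.8% of Serpina3h, 34.99% of Serpina3m, 28.4% of Serpina3g, 27.3% of Serpina3f and of Serpina3i and 16.9% of Serpina3c, and Serpina3f and Serpina3g shared most with each other, so the levels of these paralogs are uncertain to that extent.

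**Figure D4:**
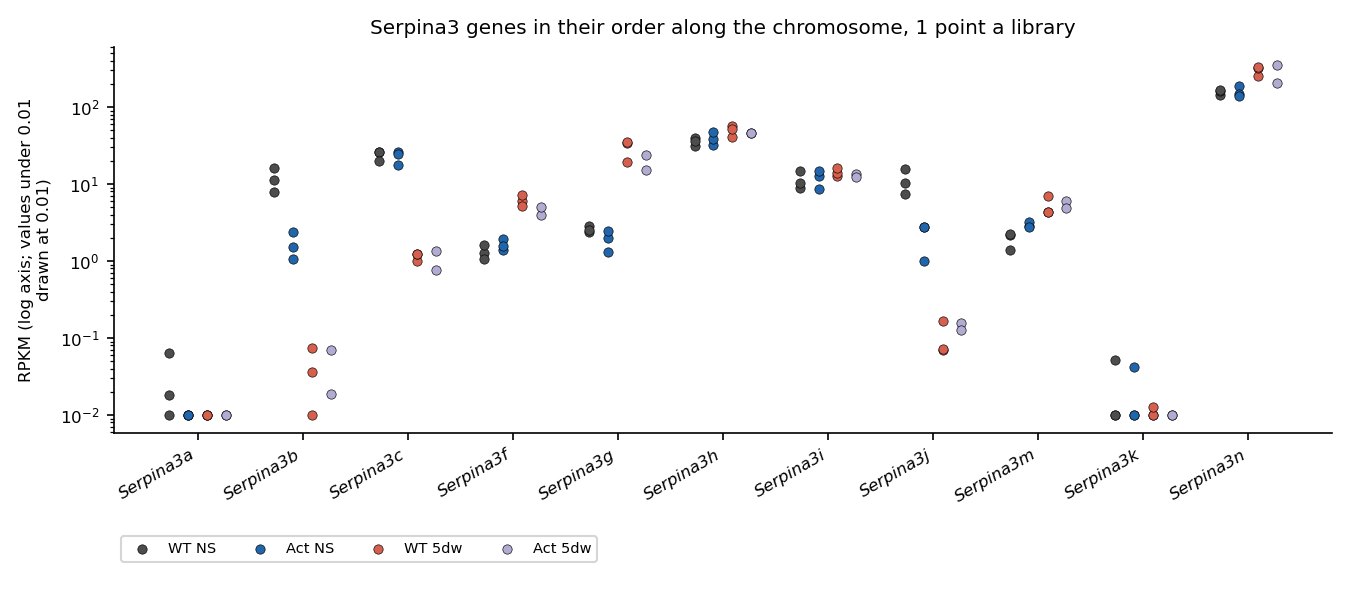
RPKM (y axis, log scale, values under 0.01 drawn at 0.01) of the Serpina3 genes in their chromosomal order (x axis), 1 point a library, coloured by group. Serpina3b and Serpina3j fall from WT NS to Act NS to wounds, Serpina3c falls in wounds only, and Serpina3g, Serpina3f, Serpina3m and Serpina3n lie higher in wounds.

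In wounds Serpina3n and Serpina3c moved in opposite directions while their upstream letters stayed close, and Serpina3b, which was lower too, was less alike. The upstream sequences of these 3 genes are shown. They are the 250 bases before the RefSeq start (GRCm38.p6, on the strand of the gene) of Serpina3n (chr12:104406458-104406707, + strand), Serpina3c (chr12:104153873-104154122, - strand) and Serpina3b (chr12:104127746-104127995, + strand). Capitals mark bases of Serpina3c and Serpina3b that differ from, or have no partner in, Serpina3n.
Serpina3n: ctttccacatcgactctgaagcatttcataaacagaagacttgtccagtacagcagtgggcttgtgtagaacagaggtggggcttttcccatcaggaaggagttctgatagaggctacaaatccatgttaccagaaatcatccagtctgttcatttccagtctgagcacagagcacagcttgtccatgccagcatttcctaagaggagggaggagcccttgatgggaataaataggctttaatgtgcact
Serpina3c: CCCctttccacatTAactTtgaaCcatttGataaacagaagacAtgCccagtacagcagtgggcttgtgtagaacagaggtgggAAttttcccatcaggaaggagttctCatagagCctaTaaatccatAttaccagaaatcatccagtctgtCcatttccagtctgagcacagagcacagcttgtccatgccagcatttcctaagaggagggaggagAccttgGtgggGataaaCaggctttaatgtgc
Serpina3b: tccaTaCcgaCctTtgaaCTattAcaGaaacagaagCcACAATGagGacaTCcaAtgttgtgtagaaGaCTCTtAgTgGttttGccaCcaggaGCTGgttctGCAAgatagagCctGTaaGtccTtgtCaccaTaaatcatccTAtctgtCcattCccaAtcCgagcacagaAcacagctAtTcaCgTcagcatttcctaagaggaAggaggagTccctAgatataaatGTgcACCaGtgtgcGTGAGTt
Serpina3c and Serpina3n had 229 identical bases of 247 aligned, 90.5% of the alignment, and Serpina3b and Serpina3n had 180 of 239, 69.0%. In wounds, Serpina3n was higher and the other pair lower. Serpina3b and Serpina3j, whose values were closely alike (Pearson's r = 0.994), had 133 identical of 197 aligned bases, 43.9%.

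F3 encodes tissue factor, the membrane receptor for factor VII (chr3:121723537-121735048, + strand). It was at 32.9, 52.1 and 40.2 RPKM in WT NS and at 40.0, 63.8 and 94.1 RPKM in Act NS. It was at 80.8, 95.1 and 93.1 RPKM in WT 5dw and at 81.7 and 82.3 RPKM in Act 5dw. In WT every wound library was above every skin library, whereas Act NS replicate 3 reached the level of the wounds. That library had the highest sum of keratinocyte markers (4771 RPKM), whereas the wound libraries had sums below every skin library. The part of keratinocyte RNA in the F3 values was not tested. The log2 difference was 1.12 in WT (SE 0.27, limma adjusted p = 0.00461, called in 22 of 22 alternatives). In Act it was 0.40 (SE 0.30, adjusted p = 0.297), and 0.76 after median-ratio scaling (adjusted p = 0.0414, within 0.0414 to 0.782 over the alternatives). The Act value was 0.082 without Act NS replicate 1 (adjusted p = 0.782) and 0.69 without Act NS replicate 3 (0.051). The difference of the wound effects was -0.72 (SE 0.40, adjusted p = 0.999), so the genotypes were not shown to differ in it, and it was -1.03 without Act NS replicate 1 (adjusted p = 0.766) and -0.42 without Act NS replicate 3 (0.967). Between Act NS and WT NS the value was 0.60 (unadjusted p = 0.0471, adjusted p = 0.701), and the same libraries left out gave 0.91 (0.617 adjusted) and 0.30 (0.585 adjusted).

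Tfpi, the inhibitor of the tissue factor pathway (chr2:84432855-84476775, - strand), stayed between 8.25 and 15.3 RPKM. It was at 10.4, 15.3 and 12.6 RPKM in WT NS, 8.25, 11.6 and 11.3 RPKM in Act NS, 12.2, 12.1 and 13.6 RPKM in WT 5dw and 13.2 and 12.6 RPKM in Act 5dw. Wound and skin libraries overlapped in WT, whereas both Act 5dw libraries lay above the 3 Act NS libraries. The log2 difference was -0.00077 in WT (95% interval -0.36 to 0.36, limma adjusted p = 0.997) and 0.31 in Act (-0.087 to 0.72, adjusted p = 0.18). After median-ratio scaling it was 0.46 in WT (adjusted p = 0.0214, within 0.0214 to 1.00 over the alternatives) and 0.67 in Act (0.00664, within 0.00664 to 0.426), so the WT sign rests on the scaling. Without Act NS replicate 1, its lowest library, the Act value was 0.165 (adjusted p = 0.426). The endothelial sums given for Plat apply here too, since vessels also express Tfpi.

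F3 over Tfpi within a library was 3.16, 3.40 and 3.18 in WT NS and 4.86, 5.49 and 8.35 in Act NS. Among wounds it was 6.62, 7.84 and 6.85 for WT 5dw and 6.17 and 6.56 for Act 5dw. WT NS libraries were the lowest of the 4 groups, and Act NS libraries spread from above WT NS to above the wounds.

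Promoter windows of RefSeq (250 bases before to 50 after the start, GRCm38.p6) were found for 7 of the 9 genes, and Plau and Plat had no entry. The AP-1 motif, TGANTCA on either strand, occurred in 2 of the 7, F3 and Plaur, and in 7.8% of 32851 promoters. Both are shown as the 160 bases before the start, F3 (chr3:121723377-121723536, + strand) and Plaur (chr7:24462323-24462482, + strand), with the motif in capitals, because they hold it. Serpina3n, which was also higher in WT wounds, held no match, nor did the windows of the other 4 genes.
F3: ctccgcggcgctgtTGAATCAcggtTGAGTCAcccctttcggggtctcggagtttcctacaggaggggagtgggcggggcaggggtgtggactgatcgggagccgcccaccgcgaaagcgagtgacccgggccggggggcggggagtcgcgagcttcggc
Plaur: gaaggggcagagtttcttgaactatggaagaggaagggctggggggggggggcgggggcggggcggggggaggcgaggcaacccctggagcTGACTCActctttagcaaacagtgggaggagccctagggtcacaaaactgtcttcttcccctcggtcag
F3 held the motif 2 times, at positions -146 to -140 and -135 to -129 from the start, and Plaur held it once, at -69 to -63. The STAT motif TTCNNNGAA was in no window of the 7 genes and in 8.3% of all windows. The SMAD box CAGAC, on either strand, was found for 4 of the 7 genes (Serpine2, Serpinf1, Serpina3n and Tfpi) and in 49.6% of all windows. Tfpi had 2 windows, and window 1 held no box, so the count by gene and the share of windows are not like measures. Plat, the gene with the largest rise, has no window here. A match is a description of letters, and factor binding was not measured.

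Between the genotypes, Act 5dw and WT 5dw showed no called difference in any of the 9 genes (0 of 9 with limma and with limma-voom, and 0 of 9 below 0.05 before adjustment). Among all genes 0.0334% were called, and 3.22% were below 0.05 before adjustment. The log2 differences ranged from -0.16 for Serpina3n (0.24 and -0.56 without either Act 5dw library, replicates 1 and 3 in turn) to 0.13 for Serpine2, leaving out Serpina3b, and the 95% intervals reached from -0.78 (F3) to 0.98 (Serpine2). Intervals were narrowest for Serpinf1 (-0.39 to 0.27) and Tfpi (-0.37 to 0.43). Of all genes 23% had no overlap between these groups of 3 and 2 libraries, and of the 9 genes 0 were so separated. The interaction of genotype and wounding was called for 0 of the 9 and for 0% of all genes tested (limma), and limma-voom also called 0. Before adjustment, 1 of the 9 (Serpina3b) and 400 of all genes (3.34%) were below 0.05.

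In unwounded skin the other 8 genes gave log2 differences between Act NS and WT NS from -0.29 (Tfpi, adjusted p = 0.701, and -0.14 without Act NS replicate 1 or -0.15 without WT NS replicate 2) to 0.60 (F3). Serpine2 was at 0.49 (adjusted p = 0.718), with the libraries of both groups overlapping, and without WT NS replicate 3, its lowest library, at 0.033. It was 0.83 without WT NS replicate 2 and 0.27 without Act NS replicate 2, none of these called. Plau, Plat, Plaur, Serpinf1 and Serpina3n lay between -0.11 and 0.054. The comparisons share their WT NS or Act NS libraries with the wound comparisons.

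Of 14 tested partners of the plasminogen system (22 listed), 4 were higher and 5 lower in WT 5dw than in WT NS, and 4 and 5 in Act. These shares of the 14 stand beside 9.45% higher and 48.8% lower among all genes in WT, and beside 9.04% and 36.5% in Act. The median of the 14 was -0.13 in WT, against -0.40 for all genes, and after median-ratio scaling 5 were higher and 2 lower in either genotype. Serpinb2, plasminogen activator inhibitor type 2, rose from 178 ± 102 to 544 ± 57.7 RPKM in WT (1.85, SE 0.60, limma adjusted p = 0.0215), and was at 222 ± 146 and 543 ± 257 RPKM in Act (1.47, adjusted p = 0.0951). In WT the call ended without WT NS replicate 1 (1.20, adjusted p = 0.0793), without WT 5dw replicate 2 (1.76, 0.0585) and with no filter on low values (1.85, 0.057). In Act it was made after median-ratio scaling (1.84, adjusted p = 0.0441) and without Act NS replicate 3 (1.98, 0.0376) or WT NS replicate 1 (1.47, 0.0437), over a range of 0.00955 to 0.418. Its wound level was thus close to that of Plat per length. Eno1, a plasminogen-binding enolase, rose by 1.38 in WT (adjusted p = 0.000452), though 28.5% of its words are shared, most with Eno1b. St14 (matriptase, -1.62, adjusted p = 0.0039), which passed the filter through skin libraries alone, and Serpinb8 (-0.95, 0.00144) fell in WT. Both are expressed by keratinocytes, whose marker sums above moved the same way, and the part of that in the result was not tested.

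Of 9 tested coagulation factors and controls (25 listed), 1 was higher and 4 lower in WT wounds and 0 higher and 4 lower in Act, with a median of -1.001 in WT and -0.73 in Act. In WT these counts of 9 are near the shares of all genes (9.45% higher and 48.8% lower), and in Act the shares of all genes were 9.04% and 36.5%. After median-ratio scaling 3 were higher and 3 lower in WT, and 2 and 2 in Act. F2rl1, the protease-activated receptor 2, was higher (1.23, adjusted p = 0.0295). Its call ended without WT NS replicate 1 (0.90, adjusted p = 0.111), and without WT NS replicate 3 or any of the 3 WT 5dw replicates (1.22 to 1.31, 0.0552 to 0.0671), and with no filter (1.23, 0.0711). F13a1, which cross-links fibrin, was lower (-2.52, adjusted p = 0.000718), from 3.91 ± 2.21 to 0.205 ± 0.0848 RPKM, and passed the filter through skin libraries alone. Procr, the protein C receptor (-1.44, adjusted p = 0.00179), and Fgl2, a prothrombinase of the fibrinogen family (-1.37, adjusted p = 0.00457), were lower.

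Of 20 other serpins tested (57 listed), 7 were higher and 8 lower in WT wounds and 5 and 8 in Act, with a median of -0.20 in WT and -0.15 in Act, beside the same shares of all genes. Serpinb2 and Serpinb8 are among these 20 and among the 14 partners, and without them 6 of 18 were higher and 7 lower in WT, and 5 and 7 in Act. After median-ratio scaling 8 were higher and 7 lower in WT, and 9 and 7 in Act. Serpina3j, Serpinb12, Serpinb7 and Serpinb6c, all called lower in both genotypes, had wound means of at most 0.40 RPKM. They passed the filter through skin libraries alone and could only be found lower. With a filter of 5 RPKM, 16 serpins were tested, with 7 higher and 5 lower in WT, and 5 and 6 in Act. The 4 with the largest differences were Serpina3j, Serpina3c and Serpina3g, given above, and Serpinb5, a serpin of epithelia known as maspin (-3.16, adjusted p = 0.00217). Serpinb5 fell from 33.7 ± 17.2 to 3.80 ± 3.69 RPKM in WT, as the keratinocyte markers did. With limma as described and with limma-voom, none of the genes in these lists was called between genotypes, and over the other alternatives Serpina3j alone was, in skin. At an unadjusted p under 0.05, 1 of the 14 partners, 0 of the 9 coagulation genes and 5 of the 20 serpins passed in skin, and 0, 0 and 1 in wounds, beside 6.88% and 3.22% of all genes.

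**Figure D5:**
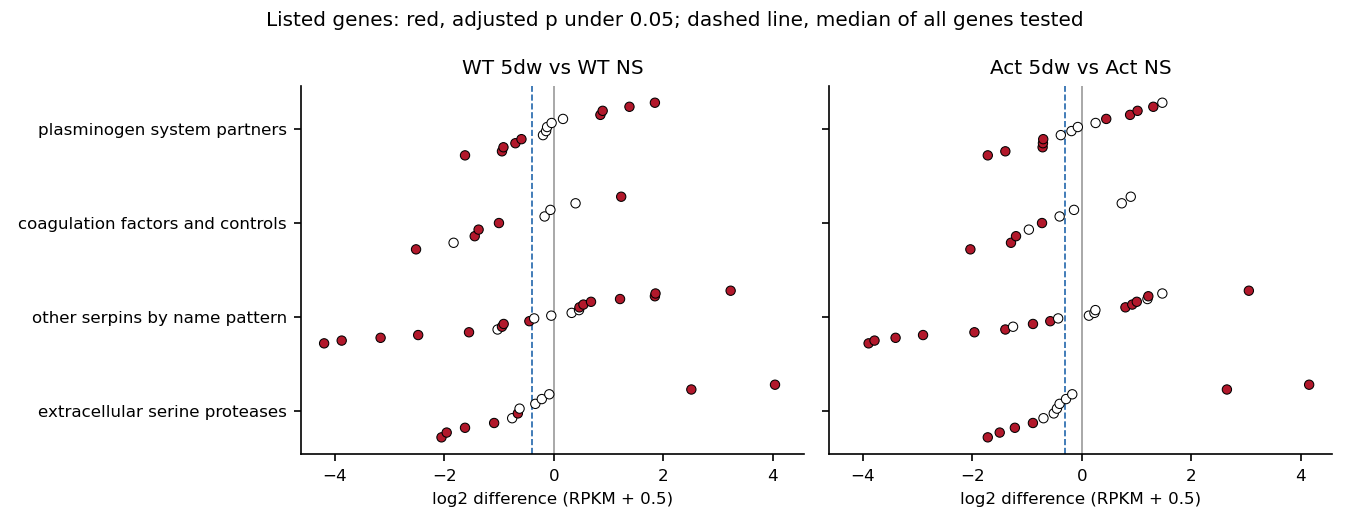
Difference between wound and skin on the log2(RPKM + 0.5) scale (x axis) for the tested genes of 4 lists (y axis) in WT and Act; red points have an adjusted p under 0.05 and the dashed line is the median of all genes tested. Each list holds red points on both sides of 0 in WT, and coagulation genes hold none above 0 in Act.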

How the data were processed

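Fibroblast RNA was sequenced as poly-A libraries with 100-base single reads. The authors aligned the reads to GRCm38 and deposited RPKM values per gene, made in CLC Genomics Workbench; how strand and reads with several matches were handled was not given in the sources used here, and the authors' edgeR comparisons, which take counts, were not repeated. The authors removed 1 Act 5dw library after quality control.

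Groups follow the labels. The members and gene lists were chosen with earlier results of these data known, and 1 gene of the lists is not reported here. Differences were tested with limma 3.58.1 in R 4.3.3 (trended spread, log2(RPKM + 0.5), 4 group means, 7 residual degrees of freedom), after a filter of 1 RPKM in 2 libraries, with Benjamini-Hochberg adjustment over 11979 genes. A difference on this scale understates that of low genes. limma was chosen because RPKM values are not counts. The script was tested on simulated data.

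Reads were recovered from RPKM steps and GENCODE exon lengths: 82.1% of 14755 low genes gave whole reads within 0.03 in every library. Plau, Plat and Serpine2 did not. The lowest count of any member besides Serpina3b was 1078 reads, a counting error of 3.05%. Intervals and floors of 3 reads cover counting error only.

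Genes named were all 9 members, up to 4 genes a list with the largest called difference in WT wounds, and any list gene called between genotypes. Outside this rule, other genes of the Serpina3 cluster were named after their values were seen. Shared sequence was counted in words of 31 bases over GENCODE transcripts. Same-numbered libraries deviated together in WT NS and Act NS (r = 0.554, 0.423 and 0.334) and in WT NS and WT 5dw (0.188, 0.120 and 0.109) but not in every pair with Act 5dw (-0.123 to 0.189), so a replicate block was among 22 alternatives; the pairing comes from these values, not from the labels.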

Additional observations from a re-analysis of the deposited data

How the results depend on the processing

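Of the 833 values of single genes under alternatives, 761 kept their direction and side of the threshold, 25 lost a call, 11 gained one and 36 changed sign. The number of members called in the wound comparison was 6 in WT and ranged from 5 to 7 without 1 library. In Act it was 4, and 7 with median-ratio scaling, 2 with a fit of the groups compared alone and 2 to 4 without 1 library. In Act NS compared with WT NS it was 1, and 0 with a filter of 5 RPKM, with a fit of the groups compared alone and with limma-voom, and 0 to 1 without 1 library. With the replicate block it was 6, 4, 1, 0 and 0 in the 5 comparisons, and the block changed no call of a member. In the lists, it moved the calls in Act wounds from 0 to 2 higher for coagulation genes, from 4 higher and 5 lower to 5 and 6 for the partners, and from 5 to 6 higher for the serpins. In WT wounds it added 1 lower call each for coagulation genes, serpins and proteases (5, 9 and 6), and between Act NS and WT NS 1 for the serpins (Serpina3j). Serpinb2 in Act was called with it (1.66, adjusted p = 0.00955). The numbers were not shown to pair Act 5dw with Act NS (r = 0.0186 and 0.144) or with WT 5dw (-0.078 and 0.189). Leaving out both NS libraries numbered 1, an alternative chosen after seeing the data, gave 7 in WT and 4 in Act: Serpinf1 was gained in WT (0.44, adjusted p = 0.0117), and in Act Plau was gained (-0.90, 0.00432) and Plaur lost (0.45, 0.115). With no filter, Plau in WT (adjusted p = 0.0622) and Plaur in Act (0.0871) lost their calls. The causes were not tested.

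Signs changed mostly where the difference was near 0. Between Act NS and WT NS, median-ratio scaling gave 0.021 for Plat, 0.074 for Plau and 0.12 for Serpina3n, array weights 0.32 for Plat and 0.26 for Plau, and leaving out both NS libraries numbered 1 0.21 for Plat and 0.22 for Plau. Without 1 library, the range there was -0.36 to 0.23 for Plat, -0.22 to 0.26 for Plau, -0.16 to 0.27 for Plaur, -0.14 to 0.066 for Serpina3n and -0.013 to 0.17 for Serpinf1. Between Act 5dw and WT 5dw, the block gave 0.0023 for Plaur, and without 1 library the range was -0.013 to 0.16 for Plau, -0.28 to 0.028 for Plaur, -0.047 to 0.0897 for Serpina3b, -0.56 to 0.24 for Serpina3n, -0.13 to 0.0087 for Serpinf1 and -0.0089 to 0.079 for Tfpi. In the wound comparisons, Serpine2 in Act was 0.24 with median-ratio scaling and 0.047 with the block, and Tfpi in WT was 0.46 with median-ratio scaling and 0.028 with array weights. Without 1 library, the range was -0.22 to 0.57 for Serpine2 and -0.13 to 0.13 for Tfpi in WT and -0.34 to 0.10 for Serpine2 in Act. Depth limits Serpina3b in wounds, with 0 to 6 reads a library.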

Other observations

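Of 12 tested extracellular serine proteases (18 listed), 2 were higher and 5 lower in WT wounds and 2 higher and 4 lower in Act (limma on log2(RPKM + 0.5), adjusted p under 0.05), with a median of -0.64 and -0.48. St14, which fell, is also among the partners of the plasminogen system. Among all genes 9.45% were higher and 48.8% lower in WT, and 9.04% and 36.5% in Act. After median-ratio scaling 2 were higher and 4 lower in WT, and 2 and 3 in Act. The 2 that rose were Prss35, from 0.448 ± 0.204 to 15.1 ± 3.14 RPKM in WT (4.04, adjusted p = 7.97e-07), and the proprotein convertase Pcsk5, from 8.58 ± 1.81 to 51.2 ± 9.01 RPKM (2.52, adjusted p = 8.12e-06). In Act they rose by 4.16 and 2.65. Prss35 passed the filter on low values through the wound libraries alone, so it could only be found higher there. The convertase Pcsk6 (-2.05, adjusted p = 0.00039) and the peptidase Dpp4 (-1.96, 0.00098) fell in WT and in Act (-1.50 and -1.22). In Act the call of Dpp4 ended after median-ratio scaling (-0.86, adjusted p = 0.102, within 0.00869 to 0.266 over the alternatives), with no filter (-1.22, 0.0642), without Act 5dw replicate 3 (-0.71, 0.266) and without Act NS replicate 2 (-0.91, 0.0877), and that of Pcsk6 ended without Act 5dw replicate 3 (-1.19, 0.071). None was called between genotypes (0 of 12 with limma or limma-voom, and 0 of 12 below 0.05 before adjustment, in skin and in wounds, beside 6.88% and 3.22% of all genes).

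Genes whose pattern over the 11 libraries was most like each of the 9 are given as a description, since the libraries fall into tissue groups. For Plat they were Gdnf (Pearson's r = 0.989), Cxcl2 and Tspan6, for Plau Zbtb46 (0.988), Smcr8 and Pim1, and for Plaur Pvr (0.978), Kcnn4 and Ptgs2. For F3 they were March3 (0.962), Srxn1 and Sox9, and for Tfpi Nap1l1 (0.952), Gm14326 and Mcts1. For Serpinf1 they were Pcolce (0.961), Pmepa1 and Spata13, for Serpina3n Prl2c3 (0.962), Tnfrsf9 and Rtn4rl2, for Serpina3b Serpina3j, Pxmp4 (0.981) and Tmem45b, and for Serpine2 5031425E22Rik (0.896), Gm13192 and Tmem173.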
